A study of Mus musculus with 2 samples.

Results

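The miR-10, miR-99/100 and miR-125 families were followed in RNA of plasma extracellular vesicles (EVs) through 7 mature mouse miRNAs, mmu-miR-10a-5p, mmu-miR-10b-5p, mmu-miR-99a-5p, mmu-miR-99b-5p, mmu-miR-100-5p, mmu-miR-125a-5p and mmu-miR-125b-5p, written below without the species prefix. They were chosen by name, and each of the 7 had exactly 1 probe among the 1900 miRNA spots of the array. EVs came from C57BL/6 mice, whose blood flow recovers after ligation of the femoral vessels, and from BALB/c mice, whose blood flow does not. Both groups were 8 weeks old and had the left femoral artery and vein ligated and severed, and plasma was collected 24 h later. No unligated mice were on these arrays. Each strain was represented by 1 array that held 1 pool of 5 mice, so that no value has an SD across animals and the strains could not be tested against each other. On the 3D-Gene chip, Cy5-labelled RNA binds 1 spot for each miRNA, whose fluorescence is given in arbitrary units.

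miRNAs guide the repression of mRNAs, mainly through the seed, the bases near their 5′ end that pair with the target. The 3 families are regarded as branches of 1 old superfamily. miR-10a and miR-10b are encoded within Hox clusters, miR-125 is the counterpart of lin-4 of Caenorhabditis elegans, and miR-99/100 and miR-125 genes lie beside let-7 genes in shared clusters. In blood vessels, miR-10 is known from zebrafish as a regulator of endothelial sprouting, and miR-100 is known in mouse as a repressor of mTOR in ischemic muscle vessels. miR-125a and miR-125b are known for their part in blood stem cells.

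The mature sequences are shown because they carry the family structure and bear on how well the spots can tell members apart. They were taken from RefSeq for the mouse assembly GRCm38.p6, in which all 7 names matched, and the seed (bases 2 to 8) is in capitals.
miR-10a-5p: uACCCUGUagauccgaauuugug
miR-10b-5p: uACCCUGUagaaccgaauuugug
miR-99a-5p: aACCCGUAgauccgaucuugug
miR-99b-5p: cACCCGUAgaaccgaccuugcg
miR-100-5p: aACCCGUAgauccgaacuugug
miR-125a-5p: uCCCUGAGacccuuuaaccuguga
miR-125b-5p: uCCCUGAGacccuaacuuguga

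The 7 miRNAs fell into 3 seeds. The miR-10 pair had the seed ACCCUGU. The miR-99/100 members had ACCCGUA in its place. Both miR-125 members had CCCUGAG. With positions counted from 1 at the 5′ end, miR-10a-5p and miR-10b-5p differed only by U12A, and miR-99a-5p and miR-100-5p only by U16A. miR-99b-5p differed from miR-99a-5p by A1C, U11A, U16C and U21C. miR-125a-5p and miR-125b-5p were 3 changes apart when gaps were allowed, as were miR-10a-5p and miR-100-5p across families. How far RNA of one member binds the spot of a close relative was not tested, so that the values of miR-10a-5p and miR-10b-5p, and of miR-99a-5p and miR-100-5p, may not be separate measurements.

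In GRCm38.p6 the mature miR-10a-5p lies at chr11:96317186-96317208, within the bounds of Hoxb3 and between Hoxb5 and Hoxb4. The mature miR-10b-5p lies at chr2:74726074-74726096, within the bounds of Hoxd3 and Hoxd4. miR-100-5p (chr9:41531437-41531458) and 1 copy of miR-125b-5p (chr9:41581940-41581961) lie within the long non-coding RNA gene Mir100hg, with Mirlet7a-2 between them. miR-99a-5p (chr16:77598940-77598961) and the other copy of miR-125b-5p (chr16:77646279-77646300) enclose Mirlet7c-1. miR-99b-5p (chr17:17830194-17830215) and miR-125a-5p (chr17:17830817-17830840) enclose Mirlet7e within the bounds of the protein-coding gene Spaca6. These clusters span 50578, 47408 and 692 bases in turn, and every one of these genes is on the plus strand.

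All 7 miRNAs were detected in the C57BL/6 mouse EVs, and 5 of them in the BALB/c mouse EVs. A spot was called detected where its intensity was more than 2 SD above the mean of the empty BLANK spots, taken without the highest and lowest 5%. That mean was 98.3 (SD 3.62) in C57BL/6 and 102 (SD 4.02) in BALB/c, which set the thresholds at 106 and 111. By the same rule 33.6% of all 1900 miRNAs were detected in C57BL/6 EVs, 9.84% in BALB/c EVs, 9.37% in both and 24.2% in C57BL/6 EVs only. miR-99b-5p and miR-125a-5p were the members detected in C57BL/6 EVs only. Of the 174 spots that carry no probe, 9 passed the C57BL/6 threshold and 8 the BALB/c threshold.

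The miR-10 pair was detected in both strains. The spot intensity of miR-10b-5p was 132 in C57BL/6 EVs and 115 in BALB/c EVs. That of miR-10a-5p was 121 and 113. On the C57BL/6 array these lie 9.37 and 6.16 SD above the BLANK mean, and on the BALB/c array 3.00 and 2.68 SD, so that the BALB/c signal of both was close to the threshold.

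In the miR-99/100 family, whose members are known as repressors of mTOR, miR-99a-5p and miR-100-5p were detected in both strains and miR-99b-5p in 1. miR-99a-5p read 132 in C57BL/6 EVs and 114 in BALB/c EVs. miR-100-5p read 123 and 113. miR-99b-5p read 112 in C57BL/6 EVs, 3.71 SD above the BLANK mean, and 99.3 in BALB/c EVs, which is below the mean of the empty spots. The adjacent spots of miR-99a-5p and miR-99b-5p were thus the brightest and the dimmest of the 7 on the C57BL/6 array.

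In the miR-125 family, miR-125b-5p read 120 in C57BL/6 EVs and 111 in BALB/c EVs, where it lay only 2.18 SD above the BLANK mean. miR-125a-5p read 118 in C57BL/6 EVs and 104 in BALB/c EVs. In the BALB/c EVs, 91 of the 174 spots without a probe were at least as bright as miR-125a-5p, and 6 were at least as bright as miR-125b-5p. On the C57BL/6 array none of them was as bright as any of the 7 miRNAs.

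**Figure D1:**
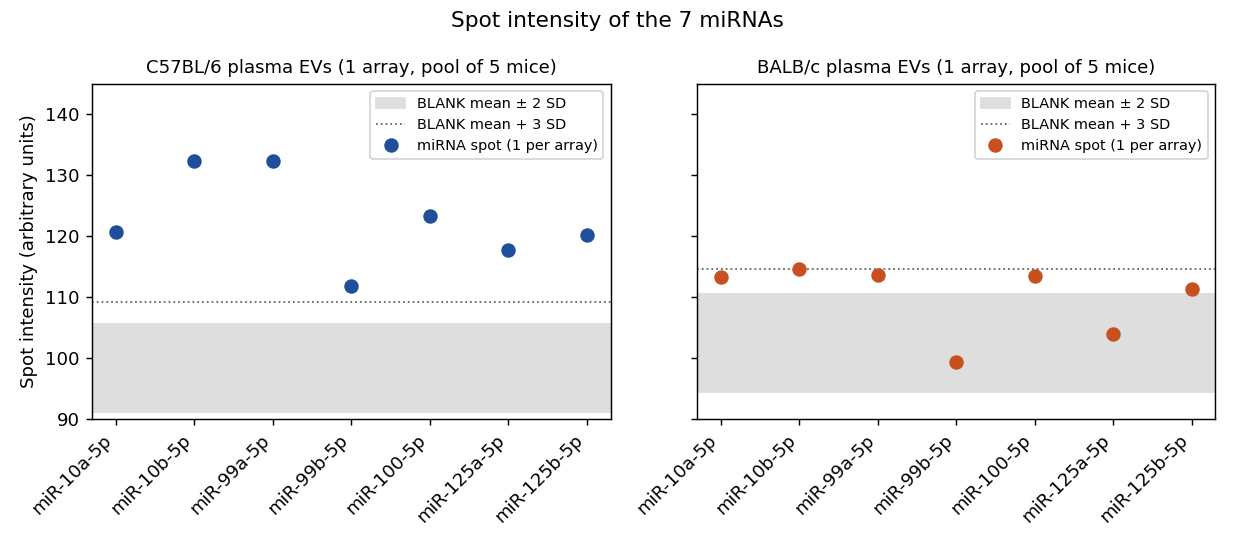
Spot intensity (arbitrary units) of each of the 7 miRNAs, 1 spot per array, for the C57BL/6 (left) and BALB/c (right) plasma EVs. The grey band is the BLANK mean ± 2 SD and the dotted line the mean plus 3 SD of that array. All 7 points lie above the band in C57BL/6, and in BALB/c miR-99b-5p and miR-125a-5p lie inside it.

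The order of the 7 intensities was the same on both arrays except for the top pair. It ran miR-99a-5p, miR-10b-5p, miR-100-5p, miR-10a-5p, miR-125b-5p, miR-125a-5p and miR-99b-5p in C57BL/6 EVs, and miR-10b-5p came before miR-99a-5p in BALB/c EVs. No neighbours in this order differed by more than 2 SD of a difference between spots, which is 2.83 SD of the BLANK spots. The largest gap was 2.47 SD, between miR-10b-5p and miR-100-5p in C57BL/6 EVs. The brightest and the dimmest of the 7 were 5.67 SD apart in C57BL/6 EVs and 3.78 SD apart in BALB/c EVs. Since probes bind with unequal strength, this is an order of spot intensities and not of amounts of miRNA. The 7 miRNAs were dim on both arrays. They ranked between 224 and 422 of 1900 in C57BL/6 EVs, and the 5 detected in BALB/c EVs ranked between 144 and 180 there. Together they made up 0.115% of the signal above background of all detected miRNAs in C57BL/6 EVs and 0.317% in BALB/c EVs.

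The surroundings of the 7 spots were bright as well. On the C57BL/6 array the intensity around the spots had a median of 100 for the 7 miRNAs and 77.8 for the BLANK spots. It was 85.6 for all miRNAs and 89.1 for those in row 1 of the blocks, which holds all 7 probes. On the BALB/c array it was 98.6 for the 7 miRNAs, near the 98.1 of row 1, and 85.7 for the BLANK spots. In C57BL/6 EVs the spots of the 7 miRNAs were 17.7 to 26.9 units brighter than their surroundings. For BLANK spots of that array this difference had a median of 20.1 and a range from 7.66 to 31.9 between its 5th and 95th percentiles. None of the 7 exceeded that 95th percentile on either array, against 34.8% of the 638 miRNAs detected in C57BL/6 EVs and 41.7% of the 187 detected in BALB/c EVs. In the BALB/c EVs, miR-100-5p at 113 was dimmer than its surroundings at 120. Ranked by the difference between spot and surroundings, the 7 miRNAs lay between 395 and 1023 of 1900 in C57BL/6 EVs. The 5 detected in BALB/c EVs lay between 192 for miR-125b-5p and 1835 for miR-100-5p there.

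The place of the spots moves with these values. All 7 probes are in row 1 of their blocks, while the BLANK spots are in other rows. Of the 320 miRNAs in row 1, 45% were detected in C57BL/6 EVs, 24.1% in BALB/c EVs and 23.1% in both. The dim end of row 1, its 10th percentile, was at 98.7 in C57BL/6 EVs and 99.1 in BALB/c EVs, against 94.2 and 95.6 in the other rows. Within row 1, miR-99a-5p ranked 54 and miR-99b-5p ranked 98 in C57BL/6 EVs, and the 5 members detected in BALB/c EVs ranked between 55 and 75. The part of the row in the detection of the 7 miRNAs was not tested.

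For the comparison of the strains, the BLANK mean was subtracted and both arrays were brought to a common 75th percentile of the 178 miRNAs detected in both, which divides each ratio of C57BL/6 to BALB/c by 5.32. On this scale the signals of miR-10a-5p were 9.66 in C57BL/6 EVs and 24.9 in BALB/c EVs. They were 14.7 and 27.8 for miR-10b-5p, and 14.7 and 25.5 for miR-99a-5p. They were 10.8 and 25.3 for miR-100-5p, and 9.44 and 20.2 for miR-125b-5p. The scaled signal of all 5 was higher in BALB/c EVs, as was that of 58.4% of the 178 shared miRNAs and 93.2% of the 74 shared miRNAs in row 1. For the 5 miRNAs this direction was fixed by the detection rule. The lowest signal detected in BALB/c EVs was 8.08 above the BLANK mean, and no member exceeded 34.0 in C57BL/6 EVs. After the division by 5.32, a member this dim could only read higher in BALB/c EVs if detected there.

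The log2 ratio of C57BL/6 to BALB/c was -1.36 for miR-10a-5p, -0.92 for miR-10b-5p, -0.79 for miR-99a-5p, -1.23 for miR-100-5p and -1.10 for miR-125b-5p. When the signals were shifted in opposite directions by 2 BLANK SD, each of these ranges included 0. The range was narrowest for miR-10b-5p, from -2.004 to 0.94, and widest for miR-125b-5p, from -2.62 to 2.93. On this scale no member's ratio was therefore separated from equal signals by more than the spot noise. A ratio past 2-fold, lower in C57BL/6 EVs, was seen for 3 of the 5 and for 36.5% of the shared miRNAs, or 60.8% of those in row 1.

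The direction depended on the scaling. On the authors' scale, which sets the detected miRNAs of either array to a median of 25, the same 5 miRNAs were higher in C57BL/6 EVs, as were 95.5% of the shared miRNAs. The authors' values were 28.2 and 11.4 for miR-10a-5p, 42.9 and 12.7 for miR-10b-5p, and 42.9 and 11.7 for miR-99a-5p in the C57BL/6 and BALB/c EVs. They were 31.6 and 11.6 for miR-100-5p and 27.6 and 9.23 for miR-125b-5p. The folds ran from 2.48 for miR-10a-5p to 3.68 for miR-99a-5p, and in log2 from 1.31 to 1.88. On that scale the range from the spot noise included 0 for miR-10a-5p, from -0.06 to 3.69, and lay above 0 for the other 4, with low ends from 0.05 for miR-125b-5p to 0.75 for miR-99a-5p. The log2 ratios were also above 0 on the spike controls, from 0.19 to 0.76. With the normexp correction and quantile normalization they lay close to 0, from -0.08 for miR-125b-5p to 0.14 for miR-100-5p. For miR-99b-5p and miR-125a-5p, which had no measured BALB/c level, the authors' values of 17.0 and 24.5 in C57BL/6 EVs were at least 1.99-fold and 2.87-fold above the lowest value detected in BALB/c EVs, 8.53. These bounds leave out spot noise, and no bound above 1 could be given for them on the shared scale.

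**Figure D2:**
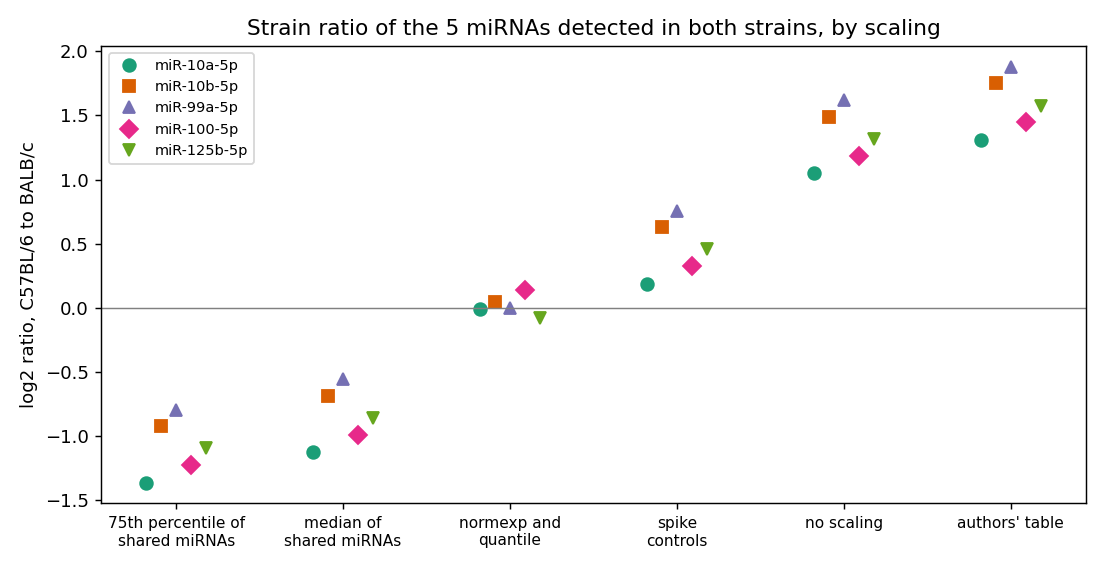
Log2 ratio of C57BL/6 to BALB/c (vertical axis) of the 5 miRNAs detected in both strains, under 6 ways to scale the arrays (horizontal axis), 1 value per miRNA and scaling. The points lie below 0 on the shared 75th percentile, from -1.36 to -0.79, and above 0 in the authors' table, from 1.31 to 1.88.

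The position of the 5 miRNAs among all shared miRNAs does not change with a single factor between the arrays. The median log2 ratio of the 178 shared miRNAs was -0.44, and relative to it the median of the 5 was -0.66. The values ran from -0.92 for miR-10a-5p to -0.35 for miR-99a-5p. All 5 were below the median of the shared miRNAs, but the range from the spot noise included that median for each of the 5. By definition 50% of the shared miRNAs lie below it, but this is no fair measure for such dim spots. At the C57BL/6 signals of miR-10a-5p, miR-100-5p and miR-125b-5p, any signal detected in BALB/c EVs gives a ratio below that median. For miR-10b-5p and miR-99a-5p the detection rule left little room above it. The 59 shared miRNAs dimmest in BALB/c EVs, the 5 included, had a median of -0.35 relative to the shared median. Their C57BL/6 intensities ran from 106 to 550. Among the 74 shared miRNAs of row 1 the median was -0.72, and 89.2% were below the shared median, so that the median of the 5 was close to that of their row. The 104 shared miRNAs of the other rows had a median of 1.17. Row 1 and the other rows hold different miRNAs, so that the row and the miRNAs in it cannot be told apart. With normexp and quantile normalization, where the offset draws the ratios of dim spots toward 0, the median of the 5 relative to the shared miRNAs was -0.03.

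**Figure D3:**
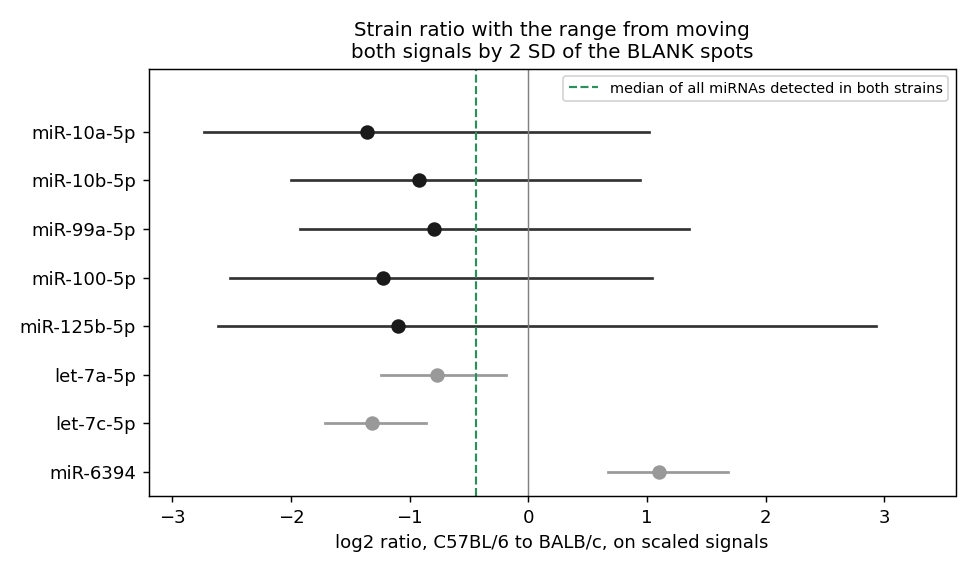
Log2 ratio of C57BL/6 to BALB/c on scaled signals (horizontal axis) for the 5 miRNAs detected in both strains (black) and for let-7a-5p, let-7c-5p and miR-6394 (grey). Lines are the range from shifting the signals in opposite directions by 2 BLANK SD, and the dashed line is the median of the shared miRNAs at -0.44. On this scale the 5 black ranges include 0 and the 3 grey ones do not, and on the authors' scale both let-7 miRNAs are higher in C57BL/6.

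The let-7 miRNAs, which restrain proliferation and are encoded beside these families, were brighter where they share the chromosome 9 and chromosome 16 clusters. let-7a-5p read 188 in C57BL/6 EVs and 131 in BALB/c EVs, and let-7c-5p read 182 and 142. Both were more than 7 SD above the BLANK mean on either array. Their log2 ratios were -0.77 (range -1.24 to -0.19) and -1.32 (range -1.72 to -0.87) on the shared scale, where the 5 members lay between -1.36 and -0.79. The range of let-7a-5p included the shared median of -0.44. On the authors' scale the direction turned, with values of 114 in C57BL/6 EVs and 30.4 in BALB/c EVs for let-7a-5p and 106 and 41.3 for let-7c-5p. Both are also made from other genes, and their spots cannot tell these apart. In the chromosome 17 cluster, let-7e-5p read 111 in C57BL/6 EVs and 101 in BALB/c EVs. The 3 guide miRNAs of this cluster, miR-99b-5p, let-7e-5p and miR-125a-5p, were thus all detected in C57BL/6 EVs only, at 111 to 118. Detection in C57BL/6 EVs only was seen for 24.2% of all miRNAs, and all 3 spots were dim.

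Of 8 opposite arms of the hairpins, which are usually degraded, 2 were detected in C57BL/6 EVs and 0 in BALB/c EVs, against 7 and 5 of the 7 members. The spots of these 8 arms lie outside row 1, where 31.3% of the miRNAs were detected in C57BL/6 EVs and 6.96% in BALB/c EVs, so that 25% and 0% of the arms were not far from the share of those rows. miR-125a-3p read 115 in C57BL/6 EVs and 100 in BALB/c EVs, and its C57BL/6 intensity was 3.15 units below that of miR-125a-5p. miR-125b-1-3p read 106 and 104, which is 2.09 SD above the BLANK mean in C57BL/6 EVs. The intensities of the 6 others ran from 93.4 to 102 in C57BL/6 EVs and from 97.1 to 106 in BALB/c EVs. Of the opposite arms of the 3 let-7 partners, let-7c-1-3p passed the C57BL/6 threshold, at 2.01 SD, and none passed in BALB/c EVs.

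**Figure D4:**
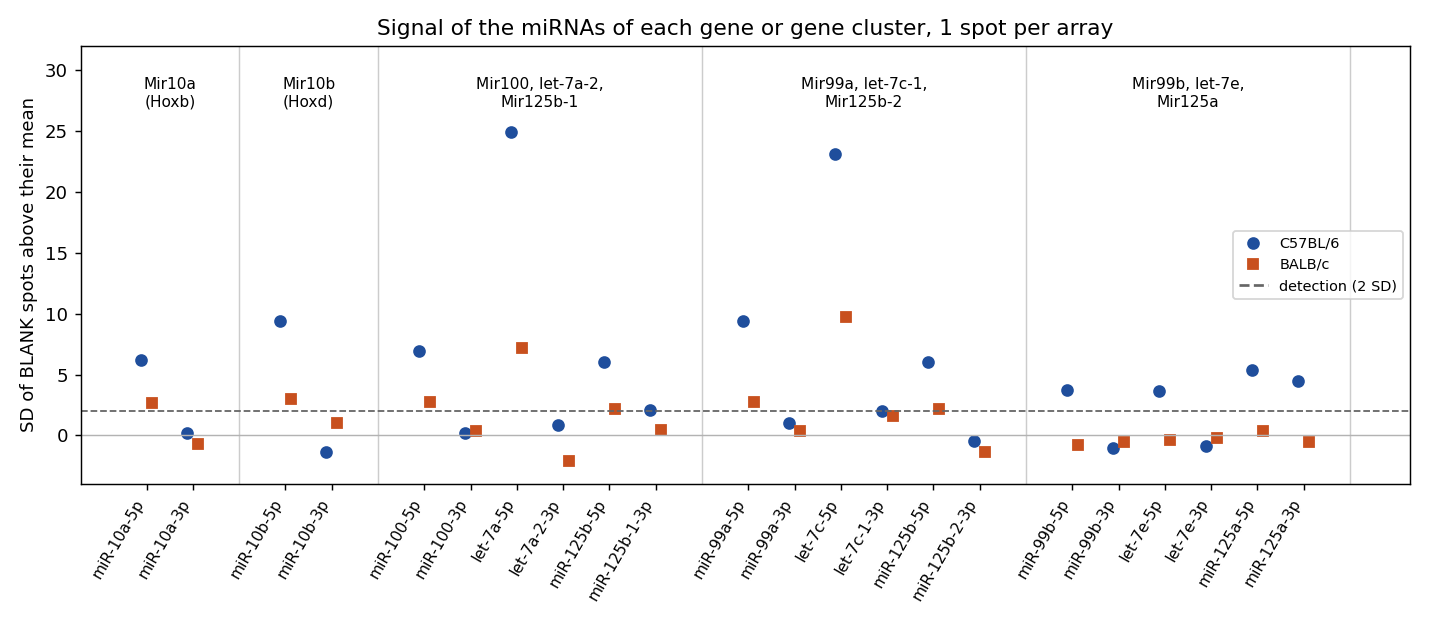
Signal of the miRNAs of each gene or cluster, in SD of the BLANK spots above their mean (vertical axis), 1 spot per array, for the C57BL/6 (circles) and BALB/c (squares) EVs. The dashed line marks detection at 2 SD, and miR-125b-5p appears with both clusters that encode it. let-7a-5p and let-7c-5p stand above 7 SD on either array. Of the chromosome 17 cluster, miR-99b-5p, let-7e-5p, miR-125a-5p and miR-125a-3p pass the line in C57BL/6 only, and miR-99b-3p and let-7e-3p in neither strain.

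Of 7 other miRNAs of the Hox clusters, 2 were detected in C57BL/6 EVs and 0 in BALB/c EVs. This is 28.6% and 0% of the list, against 33.6% and 9.84% of all miRNAs, so that the list did not stand apart from the overall share at this size. The 2 detected were both arms of miR-615, encoded in the Hoxc cluster. miR-615-5p read 159 in C57BL/6 EVs and 110 in BALB/c EVs, 1.84 SD above the BLANK mean, and miR-615-3p read 108 and 96.5. miR-196a-5p and miR-196b-5p, known as repressors of Hox genes, were not detected, at 94.6 and 101 in C57BL/6 EVs and at 93.8 and 102 in BALB/c EVs.

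Outside the 7 members, 3 miRNAs on the array had a member's seed, and all 3 had that of miR-125. Their sequences are shown for comparison with miR-125a-5p and miR-125b-5p. A sequence was matched for 1618 of the 1900 miRNA spots, so that others may be missing.
miR-351-5p: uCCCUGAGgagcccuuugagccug
miR-6367: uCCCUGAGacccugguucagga
miR-6394: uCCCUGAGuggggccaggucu

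miR-6394 was the brightest of them, at 389 in C57BL/6 EVs and 128 in BALB/c EVs, and the only one detected in both. Its log2 ratio on the shared scale was 1.10 (range 0.67 to 1.68), where that of miR-125b-5p was -1.10. Relative to the shared median the values were 1.54 and -0.66. Their spots lie in different rows, miR-6394 outside row 1, and each value was near the median of its rows, 1.17 outside row 1 and -0.72 within it. On the authors' scale both were higher in C57BL/6 EVs, with 367 and 26.9 for miR-6394 and 27.6 and 9.23 for miR-125b-5p. Outside the seed miR-6394 is unlike miR-125b-5p, with 11 changes between them. miR-351-5p, encoded on the X chromosome, read 114 in C57BL/6 EVs and 109 in BALB/c EVs, and was detected in C57BL/6 EVs only. miR-6367, 6 changes from miR-125b-5p, was at background in both strains, at 103 and 105. miRNAs with the miR-125 seed thus spanned the range from background to 80.3 SD above it in C57BL/6 EVs, and to 6.34 SD in BALB/c EVs.

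The miRNAs closest to the members in level were found by the distance between log2 scaled signals over the 2 arrays. The nearest to miR-10b-5p was miR-195a-5p, at a distance of 0.06, followed by miR-99a-5p at 0.13. The nearest to miR-99a-5p was miR-10b-5p, also at 0.13. The nearest to miR-10a-5p was miR-760-5p at 0.10, with miR-100-5p at 0.17. The nearest to miR-100-5p was miR-7241-3p at 0.11, and the nearest to miR-125b-5p was miR-378d at 0.18. With 2 arrays this likeness is one of brightness only, and the spread that the spot noise gives a single ratio, a median of 0.76 in log2 for 1 SD, exceeded every one of these distances.

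Of 13 miRNAs that mark blood cells, endothelium, liver and muscle, 12 were detected in C57BL/6 EVs and 10 in BALB/c EVs. All 13 spots are in row 1, where 45% and 24.1% of the miRNAs were detected, against 33.6% and 9.84% of all miRNAs. In BALB/c EVs miR-122-5p of liver and miR-142a-3p of white blood cells were not detected, at 1.64 and 0.33 SD above the BLANK mean. On the same list, miR-223-3p, miR-191-5p and miR-150-5p were detected in BALB/c EVs, at 166, 147 and 113. The result for miR-142a-3p therefore does not show that miRNAs of white blood cells were absent there. miR-451a of red blood cells was far above the 7 miRNAs, at 4180 and 1603, and miR-126a-3p of endothelial cells read 177 and 133. Of the muscle miRNAs, miR-133a-3p read 242 and 204 and miR-1a-3p read 124 and 151, both detected in both strains, while miR-206-3p was detected in neither. Which cells the EVs of the 7 miRNAs came from was not tested, and fewer EVs and less of a miRNA per EV cannot be told apart in pooled plasma. The labels name cells as the source of the RNA and another RNA kit than the paper's methods do.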

How the data were processed

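EV RNA of 1 pool of 5 mice per strain was labelled with Cy5 and hybridized to 1 array per strain. The deposited scanner files give the median intensity of each of 3200 spots and of its surroundings, with no background subtraction. The deposited table of the authors gives 1 background-subtracted, scaled intensity per detected miRNA. The steps that led to it are not given in the sources used here. Its values were matched to within 7.66e-05 by subtracting the BLANK mean and setting the median of each array's detected miRNAs to 25, and its detection calls were the same.

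Of 896 BLANK spots, 45 were left out at each end. miRNAs above the mean plus 2 SD were detected. Signals were scaled to the geometric mean of the 75th percentiles over the shared miRNAs. The number of arrays limits the precision, and no p-value was computed. The calculation was tested on simulated data, where recovery of a known ratio was checked only for spots far brighter in BALB/c than the members. For spots as dim as the members it was not tested. Named were the 7 miRNAs, their opposite arms, let-7 partners, Hox-cluster miRNAs, miRNAs with the same seed, the 3 nearest in level and cell type markers. The members and lists were chosen with earlier results of these data known. The comparison by array row and that with the surroundings were added after the values were seen. Sequences and positions came from RefSeq for GRCm38.p6. As alternatives, the threshold was set to 3 SD, all BLANK spots were kept, and the others were local background subtraction, normexp with an offset of 50 and quantile normalization, 5 other scalings and undetected members set to the floor, and scaling without the members was added later. Software was numpy 2.4.6, pandas 2.3.3 and matplotlib 3.10.9 in Python 3.11.15, and limma 3.58.1 in R 4.3.3.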

Additional observations from a re-analysis of the deposited data

How the results depend on the processing

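Detection in the C57BL/6 EVs did not depend on the threshold, with 7 of 7 detected at 2 and at 3 SD and with untrimmed BLANK spots. In the BALB/c EVs, 5 were detected at 2 SD, 4 with untrimmed BLANK spots and 1, miR-10b-5p at 3.00 SD, at 3 SD. At 3 SD the number detected in both strains, with a higher scaled signal in BALB/c and over 2-fold lower in C57BL/6 was thus 1 in each case. Of all miRNAs, 178 were detected in both strains at 2 SD, 155 with untrimmed BLANK spots and 140 at 3 SD, so that the members were lost more readily than the shared miRNAs as a whole. The median log2 ratio of the members was -1.10 on the shared 75th percentile. It was 1.58 both in the authors' table and when either array was scaled on its own detected miRNAs, 1.32 without scaling, 0.46 on the spike controls and 0.00222 with normexp and quantile normalization. The number of members higher in BALB/c, 5 in the report, was then 0, 0, 0, 0 and 2 in turn. The share of all shared miRNAs, 58.4% in the report, was 4.49%, 4.49%, 6.18%, 19.7% and 39.3%. The number over 2-fold lower in C57BL/6, 3 in the report, was 0 in all of these settings, with at most 5.62% of all shared miRNAs. It was 1 on the median of the shared miRNAs, with 25.8%. With untrimmed BLANK spots and with local background subtraction it was 4 of 4, with 43.2% and 40.9%. In the authors' table, and with either array scaled on its own detected miRNAs, the log2 ratio was 1.31 for miR-10a-5p and 1.75 for miR-10b-5p. It was 1.88 for miR-99a-5p, 1.45 for miR-100-5p and 1.58 for miR-125b-5p. Without scaling these were 1.05, 1.49, 1.62, 1.19 and 1.32, and on the spike controls 0.19, 0.63, 0.76, 0.32 and 0.46. With normexp, miR-10b-5p was at 0.0442, miR-99a-5p at 0.00222 and miR-100-5p at 0.14. The single-factor scalings shift all ratios by construction. With local background subtraction, miR-100-5p had no BALB/c signal above 0 and no ratio. Scaling without the members kept 5 higher in BALB/c, a direction that the detection rule again fixed, with 59.6% of all shared miRNAs. BALB/c signals of 2.18 to 3.00 SD above the BLANK mean limit every ratio.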
